A study of Mus musculus with 6 samples.

Results

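Serotonin receptor genes were followed in ribosome-bound RNA of serotonin neurons and in the RNA left behind in the same tissue lysates. The set was a list of 10 receptor genes of the Htr family, and every probe set whose only gene symbol in the platform annotation was one of them was taken. In all, 9 of the 10 genes had such a probe set, out of 18193 genes with one on the array, and they were read by 17 probe sets. Htr2a had none and was not analysed here. The IP group held 3 samples of translating ribosome affinity purification (TRAP) RNA, which comes from tagged ribosomes pulled out of a lysate with the mRNA on them. The unbound group held 3 samples of what stayed in solution, labelled as total tissue RNA. Both groups came from adult mice of both sexes, 6 to 12 weeks old, on a mixed FVB and c57/bl6j background, and all were transgenic animals of the slc6a4 JD60 line, made with a bacterial artificial chromosome, so no sample was free of the transgene. The line uses the regulatory region of Slc6a4, the serotonin transporter gene, and tagged ribosomes are therefore found where that region is active. Each sample pooled 5 mice, and the tissue was midbrain and brainstem with the cerebellum taken off. RNA was hybridised to Affymetrix mouse expression arrays, one for each sample.

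Serotonin acts on a large family of receptors, nearly all of which are coupled to G proteins. Receptors of the Htr1 group act through Gi/o proteins, which lower cyclic AMP and open inward-rectifier potassium channels, and on serotonin neurons themselves they serve as autoreceptors that hold back firing and transmitter release. Receptors of the Htr2 group act through Gq and phospholipase C, those encoded by Htr4 and Htr7 raise cyclic AMP through Gs, and Htr3a encodes a subunit of a ligand-gated cation channel. In the brainstem these receptors lie both on serotonin neurons and on the cells that serotonin neurons contact.

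Values are log2 expression from GCRMA, with the IP arrays shifted to the unbound arrays by the biotinylated hybridisation controls. A log2 value of 5 served as the detection limit, and testing was limited to genes that reached it on 3 or more of the 6 arrays. A gene was called where limma gave an adjusted p under 0.05 and a change of at least 2-fold. Of 10581 genes tested, 10.4% were called higher and 41.1% lower in IP. IP and unbound values did not overlap for 23.9% of genes with IP higher and 59.1% with IP lower, so neither a call nor a clean separation was rare here. Slc6a4, the check of the labels, had values of 14.33, 14.10 and 14.18 in IP against 8.99, 9.13 and 9.04 in unbound RNA. Its change of 5.15 ± 0.09 SE ranked 19 from the top (adjusted p = 3.73e-07), and all 9 genes on a list of serotonin neuron markers were called higher. Of these, Lmx1b was under the limit on every unbound array and passed the filter through the IP arrays, which fixed its direction. With the poly-A scaling described further on, 7 of the 8 then tested were called higher. The difference between the 3′ and 5′ beta-actin control probe sets, a sign of RNA integrity and amplification length, was 3.68 to 5.04 in IP, against 3.95 to 4.09 in unbound RNA. As deposited, the poly-A spike controls read 2.91 log2 units higher in IP than in unbound RNA, and the biotin controls 0.23 higher.

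Of the 9 genes with a probe set, 7 passed the detection filter. Htr1a, Htr1b, Htr1d and Htr5b rose in IP, a direction that reversed for Htr1a, Htr1b and Htr5b with the poly-A scaling described further on, while Htr2c, Htr4 and Htr7 fell. That made 4 of 7 higher and 3 of 7 lower, with a median log2 change of 1.26, beside -0.65 over all genes tested. All 7 separated without overlap, 4 with IP higher and 3 with IP lower. For Htr4 only the unbound arrays reached the limit, so the filter fixed its direction. Over all genes tested 10.4% were called higher and 41.1% lower, and 23.9% and 59.1% separated with IP higher and lower. The 3 tested genes of the Htr1 group all rose, except with that scaling. Htr2c, the only tested gene of a Gq-coupled receptor, fell, as did Htr4 and Htr7, the only tested ones of Gs-coupled receptors. These are few genes, and a pattern by coupling was not tested. Htr1f and Htr3a stayed under the limit on all 6 arrays and were not tested. In bulk RNA such as the unbound fraction, fewer cells of a type and less RNA per cell cannot be told apart, and the same holds for cell type and ribosome binding, which differ together between the groups.

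**Figure D1:**
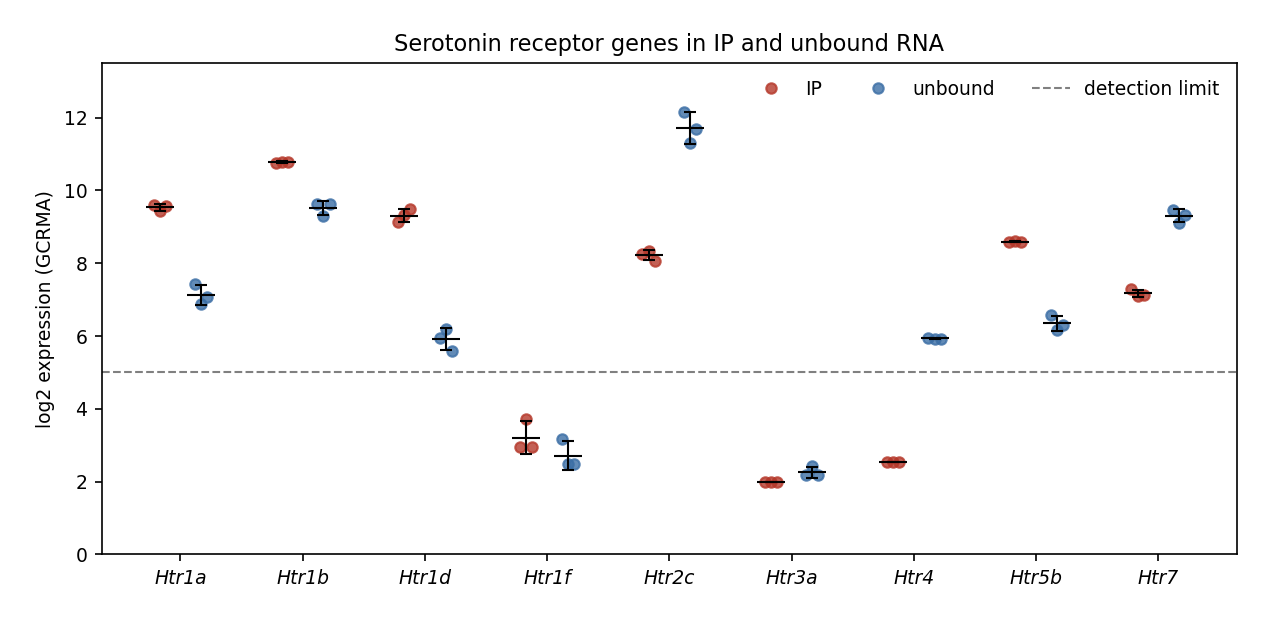
Log2 expression (vertical axis) of the 9 serotonin receptor genes, each by its brightest probe set, on the 3 IP arrays (red, left) and the 3 unbound arrays (blue, right), with bars for the mean and SD and a dashed line at the detection limit of 5. Htr1a, Htr1b, Htr1d and Htr5b have every IP array above every unbound array, Htr2c, Htr4 and Htr7 have every IP array below with the biotin scaling, and Htr1f and Htr3a lie under the limit throughout.

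Htr1a encodes the Gi/o-coupled receptor on the cell bodies and dendrites of serotonin neurons, where it slows firing, and it is also found on target neurons in the forebrain. Its values were 9.61, 9.42 and 9.56 in IP against 7.43, 6.87 and 7.08 in unbound RNA. All 3 IP arrays lay well above the unbound ones, and the IP arrays were the tighter group. The means were 9.53 ± 0.10 in IP, against 7.12 ± 0.28 in unbound RNA (SD, n = 3 each). Htr1a was 5.30-fold higher in IP, with a change of 2.41 ± 0.16 SE on the log2 scale (limma, adjusted p = 2.37e-05). This change ranked 186 of 10581.

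Htr1b encodes the Gi/o-coupled receptor of axon terminals, which limits serotonin release as an autoreceptor and the release of other transmitters as a heteroreceptor. It had values of 10.76, 10.79 and 10.79 in IP against 9.62, 9.30 and 9.63 in unbound RNA. The IP arrays were again all higher, but by less than for the other genes that rose. Htr1b averaged 10.78 ± 0.02 in IP, against 9.52 ± 0.18 in unbound RNA (SD, n = 3 each), which is 2.40-fold higher in IP (log2 change 1.26 ± 0.11 SE, limma adjusted p = 8.31e-05). Its change ranked 765. The IP value of 10.789 recurred among the arrays, and the small SD in IP rests in part on that repeat.

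Htr1d, the closest relative of Htr1b in the family, likewise encodes a Gi/o-coupled receptor of axon terminals. Its values were 9.13, 9.32 and 9.49 in IP against 5.96, 6.18 and 5.58 in unbound RNA. No other receptor gene of the set rose as far by the fitted change. The means were 9.31 ± 0.18 in IP, against 5.91 ± 0.30 in unbound RNA (SD, n = 3 each), a 10.6-fold difference of 3.40 ± 0.18 SE on the log2 scale (limma, adjusted p = 1.01e-05). It ranked 69 of 10581, and by replicate number the differences between IP and unbound RNA were 3.17, 3.13 and 3.91.

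Htr5b encodes a receptor that is functional in rodents and whose signalling is less well known than that of the Htr1 group. It had values of 8.59, 8.61 and 8.59 in IP against 6.58, 6.17 and 6.29 in unbound RNA. IP was higher on every array, and the spread in IP was small. The means were 8.59 ± 0.01 in IP, against 6.35 ± 0.21 in unbound RNA (SD, n = 3 each), or 4.75-fold higher in IP (log2 change 2.25 ± 0.12 SE, limma adjusted p = 1.02e-05). The change ranked 212, close to that of Htr1a. Here too an IP value, 8.5857, recurred among the arrays, and the small SD in IP rests in part on that repeat.

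None of these receptors changed as much as the transporter gene that drives the transgene. Relative to Slc6a4 on the same arrays, a quantity that a common shift of a group's arrays cannot alter, the log2 change was -1.75 for Htr1d, -2.74 for Htr1a, -2.90 for Htr5b and -3.89 for Htr1b.

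Promoter windows of 300 bases, 250 before and 50 after the annotated start, were found in RefSeq (GRCm38.p6) for 7 of the 10 genes, 8 windows in all. They are shown for the receptor genes that rose together and, for contrast, for those that fell, as far as they had one. CpG dinucleotides are in capitals, since CpG density is where the windows differ most.
Htr1a, chr13:105443443-105443742: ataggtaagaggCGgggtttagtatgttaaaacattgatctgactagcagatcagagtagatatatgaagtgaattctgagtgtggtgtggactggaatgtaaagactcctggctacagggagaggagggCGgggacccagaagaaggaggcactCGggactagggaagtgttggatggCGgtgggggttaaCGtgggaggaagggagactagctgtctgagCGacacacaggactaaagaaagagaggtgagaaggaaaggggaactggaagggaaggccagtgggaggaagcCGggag
Htr1b, chr9:81633783-81634082: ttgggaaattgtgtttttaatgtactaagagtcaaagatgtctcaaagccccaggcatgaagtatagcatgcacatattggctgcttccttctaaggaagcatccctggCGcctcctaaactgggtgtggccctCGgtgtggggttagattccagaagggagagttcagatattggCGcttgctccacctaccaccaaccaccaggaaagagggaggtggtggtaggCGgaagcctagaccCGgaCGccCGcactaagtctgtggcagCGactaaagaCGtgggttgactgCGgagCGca
Htr1d start 1, chr4:136423274-136423573: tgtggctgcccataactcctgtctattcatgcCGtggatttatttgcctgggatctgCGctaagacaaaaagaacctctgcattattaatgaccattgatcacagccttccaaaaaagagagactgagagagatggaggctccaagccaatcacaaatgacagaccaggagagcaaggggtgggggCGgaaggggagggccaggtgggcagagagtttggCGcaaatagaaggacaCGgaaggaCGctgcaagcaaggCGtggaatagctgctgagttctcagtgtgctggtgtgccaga
Htr1d start 2, chr4:136424362-136424661: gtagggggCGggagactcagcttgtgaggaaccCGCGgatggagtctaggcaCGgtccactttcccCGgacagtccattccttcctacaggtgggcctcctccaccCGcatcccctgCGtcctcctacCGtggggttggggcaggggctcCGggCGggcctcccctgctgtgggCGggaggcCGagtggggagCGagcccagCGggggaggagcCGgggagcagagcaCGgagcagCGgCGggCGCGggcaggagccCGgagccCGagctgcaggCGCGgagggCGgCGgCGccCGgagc
Htr2c, chrX:146962263-146962562: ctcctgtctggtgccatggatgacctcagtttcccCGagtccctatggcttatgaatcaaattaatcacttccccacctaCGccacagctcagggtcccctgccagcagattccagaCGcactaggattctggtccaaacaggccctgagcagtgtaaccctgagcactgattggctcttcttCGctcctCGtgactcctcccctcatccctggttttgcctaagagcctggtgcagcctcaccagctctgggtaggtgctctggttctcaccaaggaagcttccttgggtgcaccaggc
Htr7, chr19:36057311-36057610: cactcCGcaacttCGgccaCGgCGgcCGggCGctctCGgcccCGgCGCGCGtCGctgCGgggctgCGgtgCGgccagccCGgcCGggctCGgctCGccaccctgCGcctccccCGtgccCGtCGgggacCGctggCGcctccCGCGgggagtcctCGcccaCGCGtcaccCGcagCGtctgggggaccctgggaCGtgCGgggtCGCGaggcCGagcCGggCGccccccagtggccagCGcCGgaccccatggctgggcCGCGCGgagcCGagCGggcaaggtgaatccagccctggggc
The Htr1a window on the plus strand had a GC content of 52.3% with 7 CpG, and the Htr1b window on the minus strand 53.3% with 11. Htr1d has 2 annotated starts on the plus strand, and their windows differed widely, with 52.0% GC and 7 CpG at the first and 74.3% and 28 at the second. Among the genes that fell, the Htr2c window (plus strand) had 56.3% GC and 5 CpG, and the Htr7 window (minus strand) 81.0% GC and 46 CpG. Over all 32851 windows the medians were 52.7% GC and 7 CpG, so CpG content did not sort the genes that rose from those that fell.

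Both strands were searched for AGATAA and for TGATAA, letters bound by factors of the GATA family. The search also took in CCGGAA, known from ETS factors, then TAATTA, known from homeodomain factors, and the core promoter letters TATAAA. No base of the receptor windows was counted for more than 1 of them. None of them occurred in the 6 windows printed above. Of all windows, 11.2% held AGATAA, 9.05% TGATAA, 14.9% CCGGAA, 5.29% TAATTA and 13.6% TATAAA, and 43.2% held at least 1. The Htr1f window held AGATAA, starting 168 bases upstream of the annotated start, and the Htr2a window held TAATTA, 139 bases upstream. A match of letters in this window is a description and no site of binding.

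Htr2c encodes a Gq-coupled receptor whose transcript is edited from A to I, and it is known for high expression in the choroid plexus and in neurons of many kinds. Its values were 8.26, 8.32 and 8.07 in IP against 12.16, 11.30 and 11.68 in unbound RNA. The IP arrays were all far lower, though still above the detection limit. The means were 8.22 ± 0.13 in IP, against 11.71 ± 0.43 in unbound RNA (SD, n = 3 each), and Htr2c fell by 3.49 on the log2 scale (SE 0.22, limma adjusted p = 2.34e-05), 11.2-fold. The unbound SD of 0.43 was larger than the median of 0.18 over tested genes.

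Most tested markers of the choroid plexus were lower in IP, as Htr2c was and as 41.1% of all genes tested were called. Of 10 listed markers, 9 had a probe set and 5 were tested. Clic6, Kcnj13, Otx2 and Ttr were called lower and Sostdc1 was not called at 0.78 (Ttr and Sostdc1 were added to the named genes after their values were seen). With either median Ttr was not called. Sostdc1 was called higher with either median, without scaling and with quantile normalisation, and lower with the poly-A controls. Clic6, Kcnj13 and Otx2 were called lower under all 7 scalings. With the biotin scaling these 3 were under the limit on every IP array and passed the filter through the unbound arrays, which fixed their direction. With them set at the limit in IP the median of the list was -2.28, against -4.52. Kcnj13, a potassium channel gene, had values of 2.30 on all 3 IP arrays against 8.09, 7.15 and 7.84 in unbound RNA, at least 6.47-fold lower in IP. Clic6, an intracellular chloride channel gene, had values of 3.36, 3.20 and 3.36 in IP against 8.82, 7.62 and 8.20 in unbound RNA, at least 9.28-fold lower. Within the unbound group Htr2c, Kcnj13, Clic6 and Ttr were highest in replicate 1 and lowest in replicate 2, whereas Otx2, at 6.95, 7.20 and 7.70, was lowest in replicate 1, and Sostdc1, at 7.08, 6.21 and 7.13, was highest in replicate 3. That order was not particular to these genes. Htr7 and the glutamatergic marker Slc17a6 (12.98, 12.50 and 12.69) had it too, while the GABAergic marker Slc32a1 (10.49, 10.79 and 10.98) did not. The log2 of the summed marker signal was 13.60 to 14.12 in IP, against 15.29 to 15.71 in unbound RNA, most of it from Ttr, and 7 of the 9 markers were under the limit on every IP array. Their part in the Htr2c result was not tested.

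Htr7 encodes a Gs-coupled receptor known from thalamus, hypothalamus and brainstem. It had values of 7.29, 7.10 and 7.12 in IP against 9.46, 9.12 and 9.33 in unbound RNA. Every IP array was lower, by similar steps in each replicate. The means were 7.17 ± 0.10 in IP, against 9.30 ± 0.17 in unbound RNA (SD, n = 3 each), a fall of 4.39-fold (log2 change -2.13 ± 0.12 SE, limma adjusted p = 1.17e-05). When arrays were centred on the median of all their probe sets, the change was -1.10 and was still called.

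Htr4, the other Gs-coupled receptor gene, was under the detection limit in IP. Its value was 2.53 on all 3 IP arrays, identical in every digit deposited, against 5.94, 5.93 and 5.93 in unbound RNA. The unbound values were less than 1 log2 unit above the limit. Htr4 was at least 1.91-fold lower in IP (limma, adjusted p = 4.05e-07), the bound being taken against the limit. The small error rests on values without spread, and since only the unbound arrays reached the limit, the filter fixed the direction of this gene.

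Htr1f, a further Gi/o-coupled receptor gene, had values of 2.94, 3.72 and 2.94 in IP against 3.16, 2.49 and 2.49 in unbound RNA. The groups overlapped, and no fold is given below the limit. Htr3a, the channel subunit gene, had values of 1.98 on all 3 IP arrays against 2.17, 2.43 and 2.17 in unbound RNA. Its IP values were the lowest that group held, and neither fraction reached the limit.

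**Figure D2:**
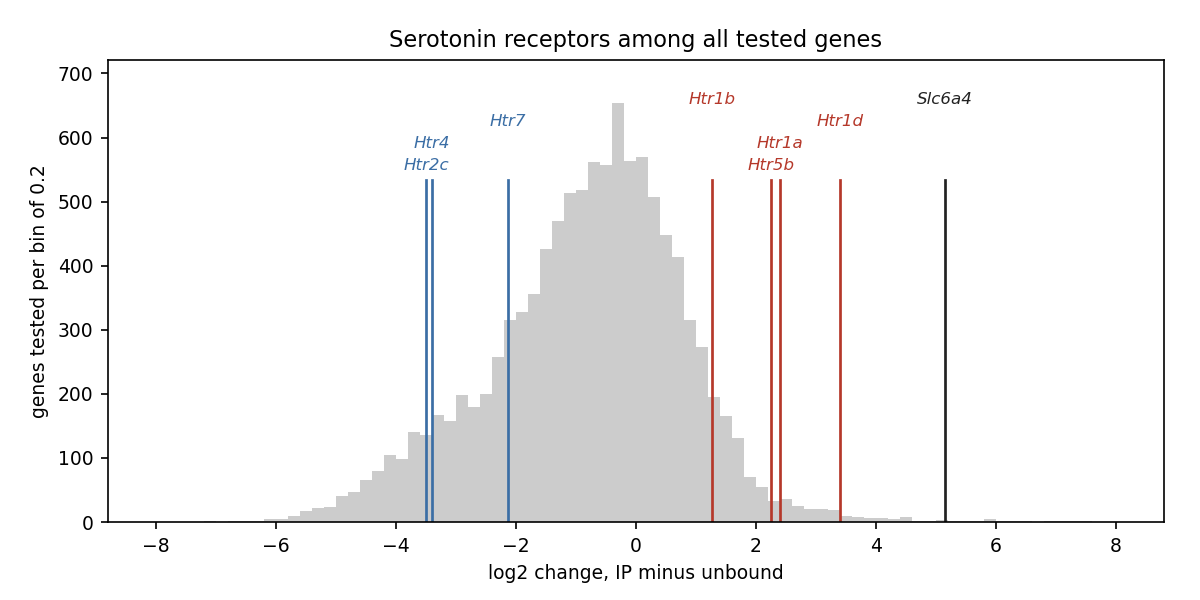
Histogram of the log2 change, IP minus unbound (horizontal axis), of the 10581 genes tested, in bins of 0.2, with lines at the 7 tested serotonin receptor genes (red, higher in IP, and blue, lower) and at Slc6a4 (black). With the biotin scaling Htr1d, Htr1a and Htr5b lie in the upper tail, Htr1b nearer the centre, and the 3 genes that fell lie in the lower flank, Htr4 being drawn at its fitted change although its IP values were under the detection limit.

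Within the distribution of all tested changes, Htr1d lay at percentile 99.4, Htr1a at 98.2, Htr5b at 98.0 and Htr1b at 92.8. Htr7 lay at percentile 19.3 and Htr2c at 6.78, which is about as far from the bottom as Htr1b from the top. Htr4 is given no percentile, since its IP values were under the limit and its change has only a bound. Beside the 4 of 7 receptor genes called higher and the 3 of 7 called lower stand 10.4% and 41.1% of all genes, and these background shares moved with the scaling. They were 23.8% higher and 23.5% lower with quantile normalisation, 25.8% and 24.5% when arrays were centred on expressed probe sets, and 33.9% and 19.5% when centred on all probe sets, while the receptor counts stayed at 4 and 3.

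The reading of most receptors depended on which probe set was used. Of the 17 probe sets, 8 were annotated by the platform to a RefSeq mRNA and 9 to another GenBank record. Of the 8, all but the one for Htr5b lay under the limit on every array. For Htr1a the RefSeq probe set had 2.08 in IP, against 2.31 ± 0.25 in unbound RNA (SD, n = 3), while the other one gave the values above. Htr2c and Htr7 had the same division, with 1.98 and 2.00 in IP against 2.42 and 2.17 in unbound RNA by their RefSeq probe sets. For Htr1b and Htr1d the RefSeq probe sets were brighter in IP, at 4.61 and 3.61 against 2.34 and 2.17 in unbound RNA, though both under the limit. Of the 6 genes with both kinds, 5 had the RefSeq kind under the limit and the other kind above it, beside 19.1% of the 2173 genes on the array that had both kinds. The reverse division was found in none of the 6 genes and in 19.1% of the array.

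Htr1d was the only gene with more than 1 probe set tested. The brighter one carries a suffix by which Affymetrix marks probe sets with some probes that match other sequences. The other, without that suffix, had means of 8.21 ± 0.39 in IP, against 5.30 ± 0.39 in unbound RNA (SD, n = 3 each), and its log2 change was 2.91 ± 0.27 SE (limma with every probe set tested by itself, adjusted p = 1.36e-04). Both put Htr1d higher in IP. The second Htr4 probe set read 2.25 in IP and 2.21 in unbound RNA, so the fall of Htr4 rests on a single probe set. Averaging each gene's probe sets before the test pulled the change of Htr1a to 1.09 and that of Htr2c to -1.96, both still called, and left Htr4 untested. By the same averaging Htr7 was at -1.15, Htr1d at 2.58 and Htr1b at 1.76, each called in the direction above.

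**Figure D3:**
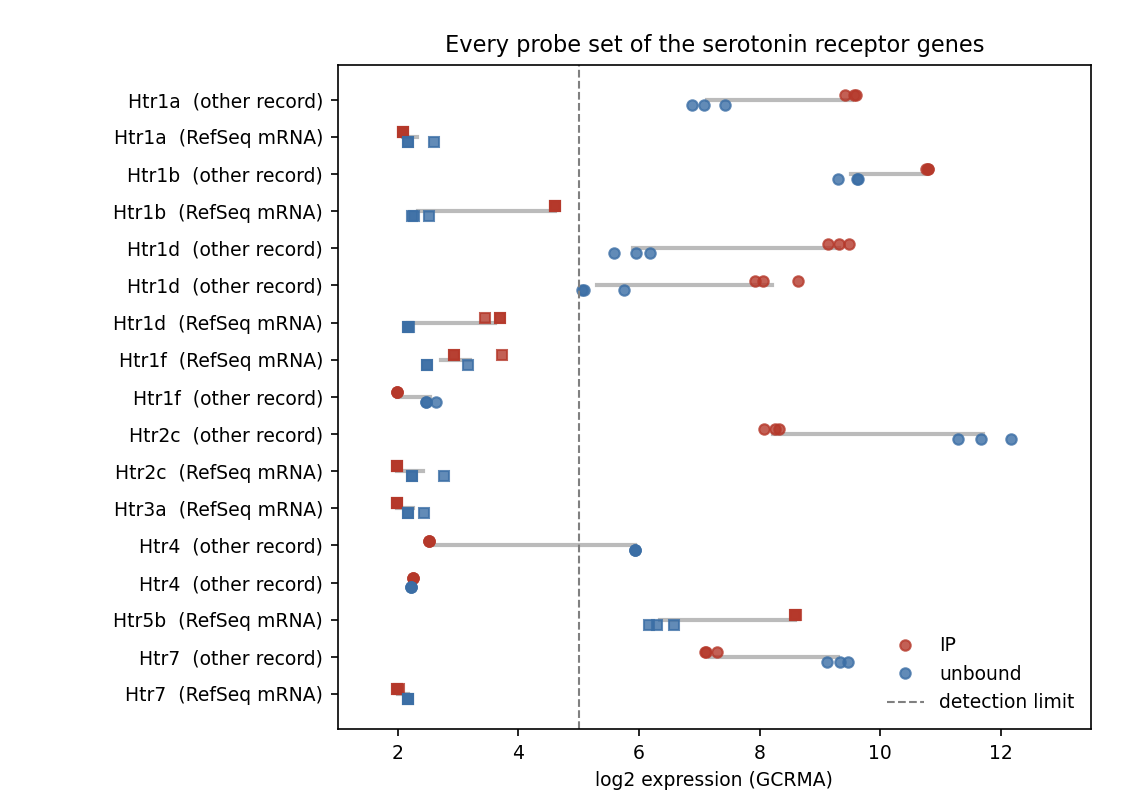
Log2 expression (horizontal axis) on each IP (red, upper) and unbound (blue, lower) array for all 17 probe sets of the 9 serotonin receptor genes, with squares for probe sets annotated to a RefSeq mRNA, circles for those annotated to another record, and grey lines joining the group means. Bright probe sets other than that of Htr5b are circles, and 7 of the 8 square ones lie left of the detection limit of 5.

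Since the authors normalised the groups separately, the size of every change depends on the scaling between them. Without scaling, with quantile normalisation, with arrays centred on either median or shifted singly by their biotin controls, the same 4 genes were called higher and the same 3 lower. The median change of all tested genes was -0.41, 0.04, 0.13 with expressed probe sets, 0.44 with all of them, and -0.66 in that order, against -0.65 with the scaling used. Of all genes called, 79.8% were lower with the scaling used, 49.7% with quantile normalisation, 48.7% and 36.5% with the medians over expressed and over all probe sets, and 99.7% with the poly-A controls. Over these 5 scalings the log2 change ran up to 4.43 for Htr1d, 3.44 for Htr1a, 3.28 for Htr5b and 2.29 for Htr1b, each reached with the median over all probe sets. Shifting IP to the poly-A spike controls, which lowers every IP value by 2.91 in place of 0.23, left no receptor gene called higher. Htr1d was then at 0.73, Htr1a at -0.27, Htr5b at -0.43 and Htr1b, called lower, at -1.41, while the median of all tested genes was -3.37. Under each of the 7 scalings the 4 genes lay above the median change of all tested genes and Htr2c, Htr4 and Htr7 below it. Apart from quantile normalisation, these scalings move the change of every gene by the same amount, and that median nearly with it. The side on which a gene lay was therefore almost fixed, and for Htr4 the filter fixed the direction.

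**Figure D4:**
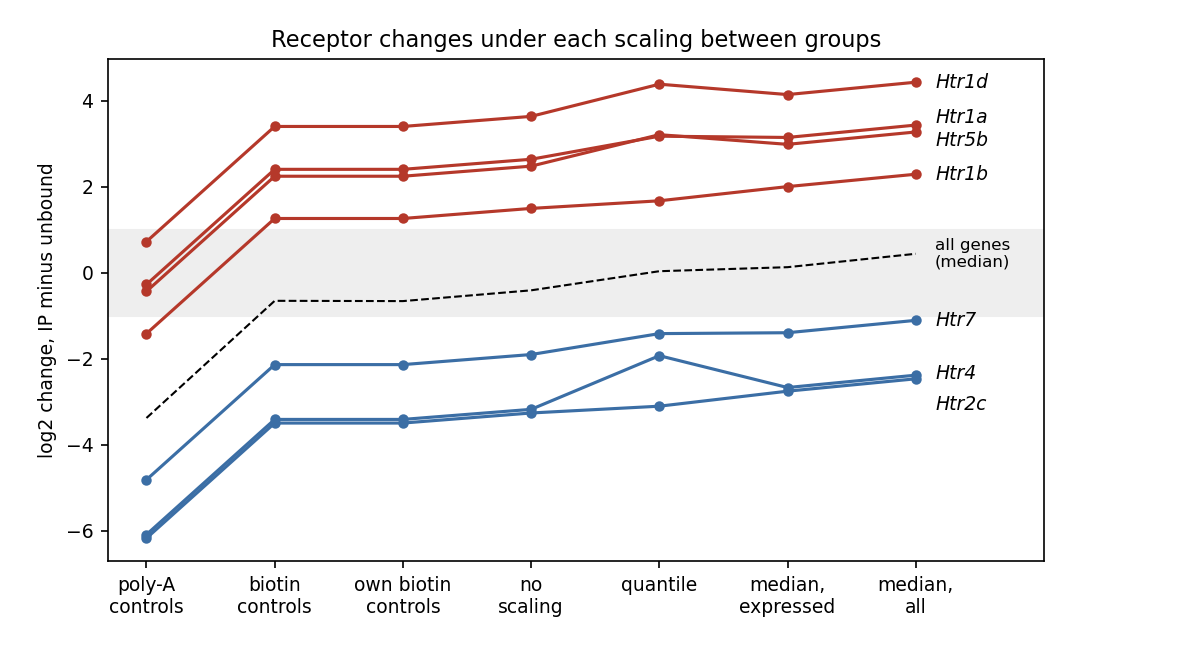
Log2 change, IP minus unbound (vertical axis), of the 7 tested serotonin receptor genes under 7 scalings between the groups (horizontal axis), with the median over all tested genes dashed and changes of less than 2-fold shaded. The receptor genes keep their side of the dashed line throughout, which all scalings but quantile normalisation nearly fix, since genes and line move together. The poly-A scaling takes Htr1a, Htr5b and Htr1b below 0.

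The remaining serotonin receptor genes gave little signal. Of Htr2b, Htr3b, Htr5a and Htr6, only Htr5a was tested. Its values were 4.83 on all 3 IP arrays, under the detection limit, against 5.60, 5.59 and 5.82 in unbound RNA, and it was not called. Taken against the limit it was at least 1.59-fold lower in IP, but its fitted change was above 0 with quantile normalisation and when arrays were centred on all probe sets, so its direction was not settled. Htr5b and Htr5a, which form a subfamily, thus gave a call in IP for the one and none for the other, a difference that was not tested. Of 9 receptor genes for noradrenaline, dopamine and histamine with a probe set, 4 were tested and 1 was called higher, beside 10.4% of all genes tested. That was Hrh1, a Gq-coupled histamine receptor gene, with 8.70, 9.13 and 9.07 in IP against 6.70, 6.96 and 6.25 in unbound RNA (5.02-fold, limma adjusted p = 1.13e-04). With other scalings more of this list was called higher, namely 2 of 4 without scaling, 3 of 4 when centred on expressed probe sets, 4 of 4 when centred on all of them and 5 of 5 with quantile normalisation, while the poly-A controls gave 0 higher and 1 lower of 2.

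The calls among the signalling partners of the receptors depended on the scaling, as did the shares over all genes tested. Those shares were 10.4% called higher and 41.1% lower with the biotin scaling. They were 25.8% and 24.5% when arrays were centred on expressed probe sets, and 33.9% and 19.5% when centred on all. Quantile normalisation gave 23.8% higher and 23.5% lower. Of 7 tested genes for Gi/o proteins and inward-rectifier potassium channels, which act downstream of the Htr1 receptors, none was called higher, while Gnai3 (-1.56) and Kcnj3 (-1.83) fell, for a median change of 0.19. With the median over all probe sets none of the 7 was called lower and 4 were called higher, Gnai2, Gnao1, Gnaz and Kcnj9, which are named after their values were seen. Of 5 tested genes for Gq and phospholipase C, downstream of Htr2c, Plcb1 (-2.38), Itpr2 (-1.36), Gnaq (-1.36) and Plcb4 (-1.29) fell, for a median of -1.36. Plcb1 was called lower under all 7 scalings, and it alone of the 4 with either median. Gna14, a Gq-family gene named after its values were seen, went the other way. It had 4.78, 4.78 and 5.53 in IP against 3.18 on all 3 unbound arrays, too dim to be tested here, and was called higher under 4 of the other scalings. Of 10 tested genes for Gs and adenylyl cyclases, which Htr4 and Htr7 act through, Adcy9 (-3.77), Adcy1 (-3.19), Adcy7 (-1.99) and Adcy8 (-1.90) fell and none rose, for a median of -0.48, which was 0.55 when arrays were centred on all probe sets. With either median Adcy2, Adcy3, Adcy6 and Gnas were called higher, beside 4 lower when centred on expressed probe sets and 2 lower when centred on all, and quantile normalisation gave 3 higher and 4 lower. These genes were named after their values were seen. Adcy1 and Adcy9, both membrane adenylyl cyclases, were called lower under all 7 scalings. Plcb4 and Adcy8 were added after their values were seen.

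Genes that act on the receptors themselves moved both ways, as did all genes tested, of which 10.4% were called higher and 41.1% lower. S100a10, whose protein p11 binds the receptors encoded by Htr1b and Htr4, had values of 14.58, 14.50 and 14.50 in IP against 11.86, 11.69 and 11.72 in unbound RNA. It was 6.82-fold higher in IP (log2 change 2.77 ± 0.08 SE, limma adjusted p = 1.09e-06). Rgs19, a regulator that speeds up the shut-off of Gi proteins, also rose by 1.64, and was added after its values were seen. Of the 14 tested genes of receptor trafficking, desensitisation and editing, these 2 rose and 6 fell, with a median of -0.89, which was 0.13 with the median over all probe sets, where 6 rose and 3 fell. The shares over all genes were then 33.9% higher and 19.5% lower. S100a10 and Rgs19 were called higher under 6 of the 7 scalings, the poly-A controls, which put Rgs19 lower, being the exception, and Rgs4 was called lower under all 7. Rgs4 (-3.10), a regulator of Gi and Gq signalling, fell most, and Grk5, a receptor kinase gene, was under the limit in IP and at least 3.06-fold lower. Grk5 passed the filter through the unbound arrays, which fixed its direction. Adarb1, an editing enzyme of the Htr2c transcript, fell by 2.04, and was likewise added after its values were seen. Among 6 tested regulators of Htr1a transcription none rose and 3 fell (median -1.49): Hes5, Hes1 and Cc2d1b, each under the detection limit on all IP arrays. With the biotin scaling these 3 passed the filter through the unbound arrays, which fixed their direction. In IP Hes5 was at least 13.4-fold lower, a call made under all 7 scalings, Hes1 was at least 1.65-fold and Cc2d1b at least 1.79-fold lower. With those 3 set at the limit in IP the median was -0.78. The median of these genes was 0.17 with quantile normalisation over the 5 then tested. Hes5 and Hes1 are also expressed in glia. The probe sets read for S100a10, Rgs19 and Hes5 carry the suffix described for Htr1d, of probe sets with some probes that match other sequences. So does the one read for Ttr.

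Markers of other cells were called lower alongside Htr2c, Htr4 and Htr7, as were 41.1% of all genes tested. Called lower were 6 of 6 tested GABAergic and glycinergic markers (median -2.80), 3 of 3 glutamatergic (median -3.99), 6 of 6 catecholaminergic (median -3.30) and 1 of 2 cholinergic ones (median -2.25). Slc17a6, the vesicular transporter of glutamatergic neurons, had means of 9.25 ± 0.31 in IP, against 12.73 ± 0.24 in unbound RNA (SD, n = 3 each). All 9 astrocyte markers (median -4.03), all 7 oligodendrocyte markers (median -3.77), 5 of 6 microglial markers (median -3.61) and all 4 tested endothelial markers (median -3.81) were called lower, and 1 microglial marker, Aif1, named after its values were seen, was called higher and was at least 1.66-fold higher in IP. The median of each of these lists was below 0 under all 7 scalings. Many of these markers were under the limit on every IP array and passed the filter through the unbound arrays, which fixed their direction. That held for all 4 endothelial, 5 of 9 astrocyte, 3 of 6 microglial, 2 of 7 oligodendrocyte, 2 of 6 catecholaminergic, and 1 each of the tested GABAergic and glycinergic, glutamatergic and cholinergic markers. Aif1 was under the limit on every unbound array and passed the filter through the IP arrays, which likewise fixed its direction. With such groups set at the limit the medians were -1.65 for endothelial, -2.81 for astrocyte, -1.24 for microglial, -3.37 for oligodendrocyte, -2.84 for catecholaminergic, -2.24 for GABAergic and glycinergic, -3.88 for glutamatergic and -0.75 for cholinergic markers. The log2 of the summed signal of glutamatergic markers was 9.13 to 9.69 in IP, against 12.79 to 13.27 in unbound RNA, and that of GABAergic and glycinergic markers 11.51 to 12.02 in IP, against 14.18 to 14.49 in unbound RNA. The part of these cells in the falls of the 3 receptor genes was not tested.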

How the data were processed

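The labels' protocols state that 20 ng of total RNA from each of 3 IP and 3 unbound samples went through Affymetrix two-cycle amplification. The authors deposited log2 values for 45101 probe sets, normalised by GCRMA within each group per the series' design text and the submitters' processing notes. Its version and a genome build are not given in the sources used here, and that the scale is log2 was read from the values. The design text recommends scaling between groups by biotinylated controls, and the IP arrays were therefore shifted by -0.23, from 18 such probe sets. Probe sets with 1 symbol in the platform annotation were used, and a gene was read by its brightest one over all arrays. limma 3.58.1 in R 4.3.3 (lmFit and eBayes on group alone, two-sided, Benjamini-Hochberg over 10581 genes) was checked on simulated data. The IP labels name biological replicates and each unbound label names the replicate it came from. Same-numbered IP and unbound samples had correlated deviations across genes (0.27, 0.16 and 0.10 for replicates 1 to 3), which pairs them by a bound of 0.1, though IP replicate 3 correlated more with unbound replicate 2 (0.21). The number of arrays limits the precision. A fold written "at least" puts each array of the dim group at the limit of 5. Chosen for naming were all members, Slc6a4, and up to 3 called genes of each other list with the largest change (2 tested genes where none was called, or the 1 there was). Several genes so chosen from the cell type lists are not printed here. Lmx1b and Slc32a1 were named outside this rule. The members and the lists were chosen with earlier results of these data known. Fev, listed among the regulators of Htr1a, was not analysed here. Alternatives were other scalings, filters, probe set rules, variance models, call rules, a replicate block and leaving out each array. The other gene lists were counted under each scaling too, a step added after seeing the data.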

Additional observations from a re-analysis of the deposited data

How the results depend on the processing

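The receptor genes called higher (4) and lower (3) kept their counts within 1.5 times under every alternative run but the poly-A scaling. That scaling left 0 receptor genes higher and 4 lower, reversed Htr1a (-0.27), Htr1b (-1.41) and Htr5b (-0.43), and gave 35 genes higher and 9992 lower over the whole array, as its larger shift lowers every IP value; Htr1d, at 0.73, was then not called. Of all genes, 2507 were higher and 2479 lower with quantile normalisation, 2727 and 2592 with the median of expressed probe sets, 3581 and 2057 with the median of all probe sets, and 1748 and 7233 with every probe set by itself, against 1104 and 4354 in the report's setting; scaling changes the shift of all genes, and the last counts more features. With no minimum fold 2330 were higher. Leaving out 1 array gave 927 to 1128 genes higher and 2885 to 4402 lower, the lowest without unbound replicate 1, and 4 receptor genes higher and 2 to 3 lower. Without any one unbound array Htr4 could no longer pass the filter, since 2 arrays then reached the limit, and it was also untested with the filter at log2 7, with probe sets averaged, or with probe sets of identical values dropped. Htr2c and Htr7 were called lower under all alternatives. With the replicate pairs as a block, 1108 genes were higher and 4360 lower, and the calls of all 7 receptor genes and Slc6a4 stood. Their adjusted p-values from limma were then larger than those given above. They ran from 2.88e-05 for Htr4 to 5.04e-04 for Htr1b among the receptor genes, and Slc6a4 had 2.78e-05. Signal over background limits what can be said of Htr1f, Htr3a and Htr4.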
